A study of Mus musculus with 2 samples.

Results

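The genes of the respiratory chain and of ATP synthase were examined in single leukemic promyelocytes from mice treated with retinoic acid or vehicle. Members were taken by symbol (Nduf, Cox4 to Cox8, Uqcr, Atp5 and Sdh subunits, and the protein-coding mt- genes) where both count matrices together held at least 10 UMIs. A UMI (unique molecular identifier) marks 1 captured RNA molecule. Of 98 matching names, 95 were members out of 32285 genes listed, 82 encoded in the nucleus and 13 in the mitochondrial genome. The other names, Cox7b2, Cox8b and Cox8c, had 0 UMIs.

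The cells were late promyelocytes transformed by PLZF/RARA, a fusion of a zinc finger protein and retinoic acid receptor alpha, and were purified from leukemic mouse bone marrow as Cd45.2+, C-Kit+, Gr1+, Cd34- and FcγR+ cells. Mice received intraperitoneal retinoic acid (0.8 to 1 mg) or corn oil with 10% DMSO, and treatment ran for 7 days. Each group held 1 single-cell 3′ library from polyadenylated RNA. The labels put 3 to 5 mice in a cohort without stating how many gave cells to a library, nor the strain, age or way in which the fusion was introduced.

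The respiratory chain passes electrons from NADH and succinate through complexes I to IV and pumps protons across the inner mitochondrial membrane, and ATP synthase (complex V) uses that gradient. Complexes I, III, IV and V mix subunits made in the cytosol from nuclear genes with subunits translated inside mitochondria from the mt- genes, whereas complex II is wholly nuclear-encoded. The mt- genes are transcribed as long precursors from few promoters, so the 2 genomes supply 1 assembly through separate transcription systems.

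After filtering, 5476 vehicle cells held 99107718 UMIs, with a median of 16749.5 per cell, and 7140 retinoic acid cells held 110088247 UMIs, with a median of 14604. The libraries shared 11 cell barcodes, all among the kept cells. Ptprc, which encodes CD45, was at 99.6 CPM (counts scaled to the same total in each library) in vehicle and 102 CPM in retinoic acid. Cd34, a gene of the negative gate, was at 53.8 CPM in vehicle and 0.118 CPM in retinoic acid. The mast cell gene Cpa3 was at 570 and 0.0999 CPM, the granule gene Mpo at 311 and 0.50 CPM and the granule gene Elane at 62.8 and 7663 CPM. The vehicle library thus carried RNA of a gene of the negative gate and of a mast cell gene, both at or near 0 in the other library. Of 12 promyelocyte markers, 11 reached 20 CPM in either library, with 6 higher and 5 lower in retinoic acid. The 28 neutrophil maturation genes summed to 2894 CPM in vehicle and 66738 CPM in retinoic acid. Of the 19 that reached 20 CPM in either library, 18 were higher in retinoic acid. Anxa1 was lower, at 441 CPM in vehicle and 55.3 CPM in retinoic acid. Camp, Ngp, S100a8 and S100a9 led the retinoic acid sum, at 18200, 14010, 13352 and 13874 CPM. Among cycling markers with at least 20 CPM, 33 of 34 S phase and 45 of 46 G2/M genes were higher in retinoic acid. No test was possible with 1 library a group, intervals below are 95% counting intervals only, and differences between mice, sorts and preparations cannot be told apart from the treatment.

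Neighbouring mt- genes overlap, which bears on how their UMIs are assigned. The ends of 3 genes that overlap a neighbour and of mt-Co1, which had the largest difference between the libraries among the mt- genes and overlaps no other member, are shown from the GRCm38 genome. All lie on the plus strand (mt-Atp8 at chrM:7910-7969, mt-Nd4l at chrM:10114-10173, mt-Nd5 at chrM:13506-13565 and mt-Co1 at chrM:6813-6872). Capitals mark the bases shared with the neighbour, and in mt-Co1 the stop codon.
mt-Atp8: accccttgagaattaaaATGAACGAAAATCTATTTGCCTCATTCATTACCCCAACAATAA
mt-Nd4l: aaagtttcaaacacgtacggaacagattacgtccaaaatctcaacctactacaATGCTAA
mt-Nd5: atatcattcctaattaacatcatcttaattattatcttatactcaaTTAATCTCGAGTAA
mt-Co1: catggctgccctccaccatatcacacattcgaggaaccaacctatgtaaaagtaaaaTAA
The mt-Atp8 end shares 43 bases with mt-Atp6 and the mt-Nd4l end shares 7 bases with mt-Nd4, in both cases including the start codon of the downstream gene. Each of these pairs is known to be carried on a shared transcript. The mt-Nd5 end shares 14 bases with mt-Nd6, which lies on the opposite strand, and whether the counting used strand is not given in the sources used here, so their UMIs are uncertain near that end. Nuclear copies of mitochondrial sequence and processed copies of many nuclear members exist in the mouse genome, so reads of these genes may have been divided among copies and their levels are uncertain. Levels are not scaled by length, and 3′ capture does not allow levels of different genes to be compared.

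Transcripts from the mitochondrial genome were lower in the retinoic acid library, while those from nuclear respiratory chain genes were at nearly the same level in both. The 13 mt- genes summed to 21045 CPM in vehicle and 13232 CPM in retinoic acid (log2 ratio -0.67), and the 82 nuclear members to 30352 and 31545 CPM (0.06). There were 0.693 mt- UMIs per nuclear member UMI in vehicle and 0.419 in retinoic acid, a log2 difference of -0.73 (-0.73 to -0.72) that does not depend on scaling by total counts. In such sums, fewer cells of a type and less RNA per cell cannot be told apart.

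Of the members, 89 reached 20 CPM in either library, 78 nuclear and 11 mt-. The 6 members under it were Ndufa4l2, Cox6a2, Cox7a1, Cox4i2, mt-Atp8 and mt-Nd6, given below as counts. The 78 nuclear members had a median log2 ratio of 0.06, with counting bounds of 0.03 to 0.08 from the middle members, and 44 were higher and 34 lower in retinoic acid. The 11 mt- members had a median of -0.55 (-0.57 to -0.53), with 1 higher and 10 lower. All 5548 genes at that level had a median of 0.01 and quartiles of -0.25 and 0.24. At least 1.5-fold lower values were found for 4 mt- members and 0 nuclear members, where 10.1% of all genes were that much lower. At least 1.5-fold higher values were found for 1 mt- and 2 nuclear members, where 8.15% of all genes were that much higher.

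The near balance of nuclear members depended on the scaling, and the tally of mt- members above and below 0 did not. TMM scaling raised every log2 ratio by 0.08 and gave 55 nuclear members higher and 23 lower. Leaving the maturation list out of the totals raised them by 0.10, moved the median of all genes to 0.10, and gave 57 higher and 21 lower. Under both, 1 mt- member was higher and 10 were lower. The number of mt- members at least 1.5-fold lower was 2 under TMM in place of 4, since mt-Co2 and mt-Nd4 no longer met that fold. The share of all genes at that fold under TMM is not given here.

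**Figure D1:**
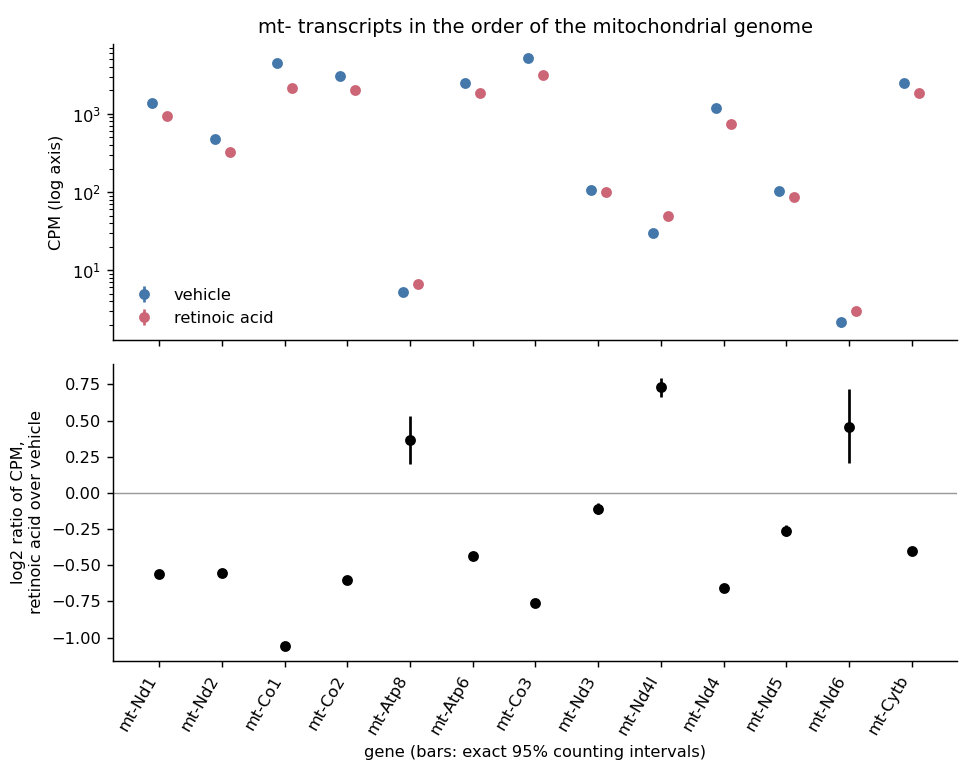
CPM of the 13 mt- genes in each library (top, log axis) and the log2 ratio of retinoic acid over vehicle (bottom) in the order of the mitochondrial genome, 1 library a group, with bars for exact 95% counting intervals. mt-Co1 has the lowest ratio (-1.06), and mt-Atp8, mt-Nd4l and mt-Nd6 lie above 0.

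Among the mt- genes of complex IV, the cytochrome c oxidase core, mt-Co1 (chrM:5328-6872) was at 4529 CPM in vehicle and 2175 CPM in retinoic acid, a log2 ratio of -1.06 (-1.07 to -1.05). mt-Co3 (chrM:8607-9390) was at 5268 and 3108 CPM (-0.76, -0.77 to -0.75). mt-Co2 (chrM:7013-7696), which carries the site that receives electrons from cytochrome c, was at 3042 and 2007 CPM (-0.60, -0.61 to -0.59). All 3 were at least 1.5-fold lower, mt-Co2 only narrowly. mt-Co1 and mt-Co3 together made up 57.8% of the mt- CPM by which retinoic acid was lower, and without them the mt- to nuclear log2 difference was -0.56.

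The membrane subunits of complex I differed more among themselves. mt-Nd4 was at 1179 CPM in vehicle and 748 CPM in retinoic acid (-0.66). mt-Nd1 was at 1374 and 933 CPM (-0.56), and mt-Nd2 at 484 and 330 CPM (-0.55). These lay close to the mt- median, whereas the genes with fewer counts did not. mt-Nd5 was at 102 and 85.2 CPM (-0.26), and mt-Nd3 at 107 and 98.9 CPM (-0.11, -0.15 to -0.07). mt-Nd4l was at 29.7 and 49.2 CPM (0.73, 0.67 to 0.80), opposite in direction to mt-Nd4, the gene it overlaps. mt-Nd6, the only member on the other strand of the mitochondrial genome, had 214 UMIs in vehicle and 327 in retinoic acid, or 2.16 and 2.97 CPM (0.46, 0.21 to 0.72).

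mt-Cytb, the cytochrome b of complex III, was at 2454 CPM in vehicle and 1859 CPM in retinoic acid (-0.40). mt-Atp6, the proton channel subunit of ATP synthase, was at 2470 and 1828 CPM (-0.43). mt-Atp8 had 516 and 739 UMIs, or 5.21 and 6.71 CPM (0.37, 0.20 to 0.53), again opposite to the overlapping gene. In the mt-Atp8 and mt-Atp6 pair and in the mt-Nd4l and mt-Nd4 pair, the upstream gene was therefore higher and the downstream gene lower. How UMIs were divided between the 2 genes of a pair was not tested. As shares of the mt- UMIs, mt-Co1 made up 21.5% in vehicle and 16.4% in retinoic acid, and mt-Cytb 11.7% and 14.0%.

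**Figure D2:**
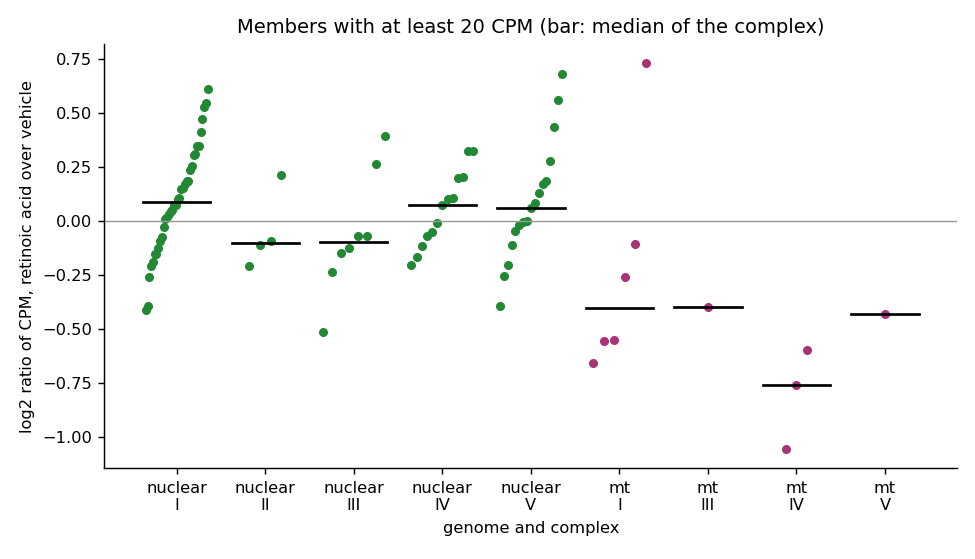
Log2 ratio of CPM, retinoic acid over vehicle, for each of the 89 members with at least 20 CPM (points), grouped by genome and complex, with a bar at the median of each group and 1 library behind each group. Nuclear medians lie between -0.10 and 0.09, and the mt- medians between -0.76 and -0.40.

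The nuclear subunits of complex I included 25 higher and 11 lower members (median 0.09). The 7 core subunits, which hold the flavin and iron-sulfur clusters that carry electrons, had a median of -0.13 with 5 lower, and the 29 accessory subunits had a median of 0.15 with 23 higher. With the maturation list left out of the total, 4 core subunits were lower and 25 accessory subunits higher, so the direction of the core group's median held while its balance narrowed. Ndufs3, an iron-sulfur protein fraction subunit of the core, was at 149 CPM in vehicle and 112 CPM in retinoic acid (-0.41, -0.45 to -0.38). The core subunit Ndufs8 was at 129 and 146 CPM (0.17), so the core did not move as 1 group.

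Among accessory subunits, Ndufb7 (chr8:83566671-83571626) was at 303 CPM in vehicle and 463 CPM in retinoic acid (0.61, 0.59 to 0.63). It was 1 of 2 nuclear members at least 1.5-fold higher. Ndufv3, Ndufb3, Ndufa3, Ndufs4 and Ndufa5 had log2 ratios of 0.55, 0.53, 0.47, 0.41 and 0.35. Ndufb5 was at 441 and 335 CPM (-0.40), Ndufa10 at 133 and 111 CPM (-0.26) and Ndufa7 at 336 and 290 CPM (-0.21). The members of complex I with most counts, Ndufb9 (1058 and 1064 CPM, 0.01) and Ndufb11 (460 and 403 CPM, -0.19), were not among the largest differences.

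Complex II oxidises succinate and belongs to the citric acid cycle as well. Sdhd, a membrane anchor, was at 189 CPM in vehicle and 177 CPM in retinoic acid (-0.09). The iron-sulfur subunit Sdhb was at 102 and 87.8 CPM (-0.21), the flavoprotein Sdha at 78.2 and 72.2 CPM (-0.11) and the other anchor, Sdhc, at 86.5 and 100.3 CPM (0.21). Complex II therefore had 3 members lower and 1 higher, and 2 and 2 with the maturation list left out of the total.

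In complex III, 6 of 8 nuclear members were lower (median -0.10), but 4 under TMM scaling and 4 with the maturation list left out. The Rieske iron-sulfur protein gene Uqcrfs1 (chr13:30540308-30545362) had the lowest nuclear ratio, at 231 CPM in vehicle and 162 CPM in retinoic acid (-0.52, -0.54 to -0.49). Uqcr10 was at 322 and 273 CPM (-0.24) and Uqcrh, the hinge protein, at 759 and 684 CPM (-0.15). Uqcrb was at 371 and 488 CPM (0.40) and Uqcr11 at 439 and 526 CPM (0.26), so small subunits of complex III lay on both sides.

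Nuclear subunits of complex IV surround the mt- encoded core, and several have forms used in particular tissues. Cox4i1 was at 1232 CPM in vehicle and 1225 CPM in retinoic acid (-0.01), Cox6c at 1122 and 1202 CPM (0.10) and Cox8a at 1222 and 1088 CPM (-0.17). Among the 13 that passed 20 CPM, 7 were higher and 6 lower (median 0.07). None of these 13 was at least 1.5-fold lower, where 10.1% of all genes were, so that count is near the share of all genes. All 3 mt- members of the same complex were that much lower, although mt-Co2 no longer was under TMM scaling.

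The partner forms were sparse. Cox4i2 had 68 and 115 UMIs next to Cox4i1, and the muscle forms Cox6a2 and Cox7a1 had 166 and 81 UMIs and 126 and 106 UMIs. Cox6a1 was at 448 and 433 CPM (-0.05), Cox7a2 at 518 and 649 CPM (0.32), and Cox7b at 497 and 458 CPM (-0.12). Cox7a2l, a supercomplex assembly factor, was at 332 and 288 CPM (-0.20). Ndufa4, first assigned to complex I and now placed with complex IV, was at 744 and 710 CPM (-0.07), and its partner Ndufa4l2 had 28 UMIs in vehicle and 0 in retinoic acid, where 3 counts or 0.0273 CPM would be the limit. Cox6b2, known as the testis form, was an exception to the sparse partners, at 139 and 174 CPM (0.32), beside 552 and 636 CPM (0.21) for Cox6b1.

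ATP synthase consists of the catalytic F1 head, a ring of c subunits, a stalk and small membrane subunits. The 5 membrane subunits (Atp5k, Atp5mpl, Atp5md, Atp5j2 and Atp5l) were all higher in retinoic acid, with a median of 0.17. Atp5k (chr5:108433244-108434448), the e subunit, was at 77.7 CPM in vehicle and 125 CPM in retinoic acid (0.68, 0.64 to 0.72), the highest nuclear ratio. Atp5mpl was at 294 and 434 CPM (0.56).

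In the F1 head, Atp5b, the catalytic beta subunit, was at 704 and 702 CPM (-0.00, -0.02 to 0.01). Atp5c1 was at 557 and 467 CPM (-0.26), Atp5d at 503 and 436 CPM (-0.21) and Atp5e at 602 and 814 CPM (0.43). The catalytic subunit was thus at a like level in both libraries while other F1 subunits lay on both sides, and the median of -0.00 for F1 changed sign with scaling (0.08 under TMM). Atp5o, the stalk subunit that joins head and membrane, was at 355 and 270 CPM (-0.40). The 3 c-ring genes were all lower (median -0.05), but 2 of 3 were higher under TMM scaling. Atp5g2, the c-ring gene and nuclear member with most counts, was at 1595 and 1475 CPM (-0.11).

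Promoters of the nuclear members with the highest and the lowest ratio are shown from RefSeq (GRCm38.p6; 250 bases before to 50 after the start), because many respiratory chain promoters are known to bind NRF1 and ETS factors such as GABP. Both strands were searched for GCGCATG (core letters of the NRF1 motif) and CCGGAAG (ETS), which do not overlap each other here, and capitals mark the matches. Atp5k lies at chr5:108434350-108434649 and Uqcrfs1 at chr13:30545267-30545566, both on the minus strand.
Atp5k: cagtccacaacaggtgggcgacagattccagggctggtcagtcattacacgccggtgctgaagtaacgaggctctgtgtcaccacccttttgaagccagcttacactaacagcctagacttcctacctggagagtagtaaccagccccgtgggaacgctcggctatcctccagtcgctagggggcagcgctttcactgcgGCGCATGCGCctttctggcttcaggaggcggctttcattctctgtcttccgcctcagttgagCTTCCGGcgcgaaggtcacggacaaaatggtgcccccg
Uqcrfs1: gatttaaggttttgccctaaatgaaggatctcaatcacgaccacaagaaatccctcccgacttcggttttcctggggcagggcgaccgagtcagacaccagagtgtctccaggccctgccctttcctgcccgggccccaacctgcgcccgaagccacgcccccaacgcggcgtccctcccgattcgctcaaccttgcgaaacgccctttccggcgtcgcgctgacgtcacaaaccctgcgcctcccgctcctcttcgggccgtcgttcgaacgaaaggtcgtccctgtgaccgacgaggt
The Atp5k window held 2 NRF1 matches, which overlap each other on opposite strands, and 1 ETS match, and the Uqcrfs1 window held 0 of either. Promoters were matched for 67 nuclear members. These members had 72 promoters. NRF1 letters were present in 18.1% of the 72 (13 members) and in 3.91% of all 32851 promoters, and ETS letters in 23.6% (17 members) and in 8.86%. Among matched members with at least 20 CPM, the median log2 ratio was 0.17 for 17 with and 0.05 for 49 without an ETS match. For the NRF1 letters the order was reversed, at 0.05 for 13 with and 0.07 for 53 without. The sign of the median with an NRF1 match depended on the form of the letters searched. These are letter matches in a fixed window and not binding sites.

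Coding length, the longest among a gene's annotated protein-coding transcripts, varied with the ratio among nuclear members. Which transcripts of a gene were captured was not tested. Across the 77 members with a coding length, Spearman's rho with the log2 ratio was -0.40, and it was 0.03 across 5479 genes; all points share the same 2 libraries. The 25 shortest (156 to 318 bases) had a median of 0.17 with 18 higher and 7 lower, and the 25 longest (525 to 2181 bases) a median of -0.09 with 9 higher and 16 lower. All genes of the short range had a median of 0.06 and all of the long range one of -0.00.

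**Figure D3:**
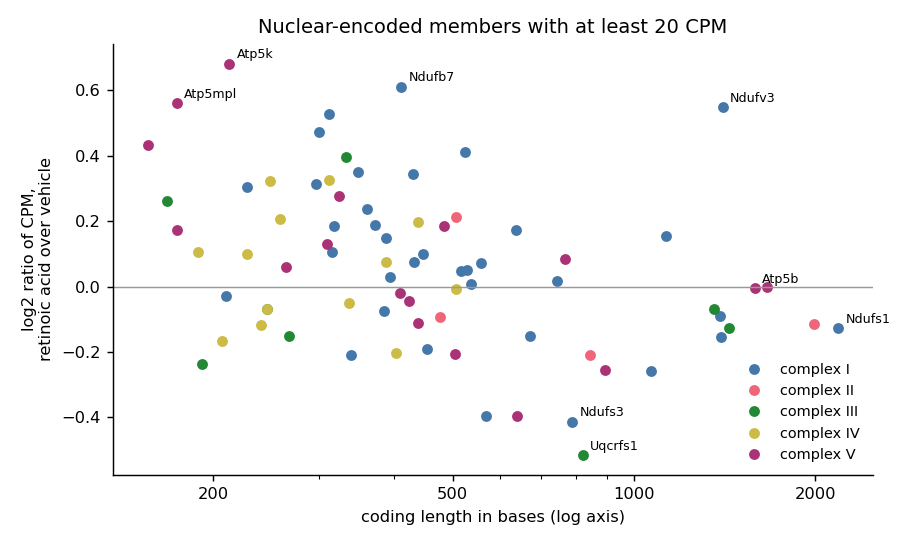
Log2 ratio of CPM, retinoic acid over vehicle, against coding length in bases (log axis) for nuclear members with at least 20 CPM, coloured by complex, 1 library a group. The short Atp5k lies highest, ahead of Ndufb7 and the short Atp5mpl, and Uqcrfs1 and Ndufs3 lie lowest. Ndufv3, long by its longest annotated coding length, lies apart from other long members at 0.55.

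Cell by cell, mt- transcripts spread widely and nuclear ones narrowly. In cells thinned to 5000 UMIs, which left out 194 vehicle and 481 retinoic acid cells, the median of mt- UMIs was 98 (quartiles 57 and 144) in vehicle and 61 (35 and 89) in retinoic acid. The median of nuclear member UMIs was 150 (133 and 167) and 158 (137 and 176). Unthinned, the median mt- share was 1.98% in vehicle and 1.23% in retinoic acid, and the nuclear share 3.00% and 3.15%. The interquartile range was 0.888 and 0.885 of the median for mt- UMIs and 0.227 and 0.247 for nuclear UMIs. Of 6659 retinoic acid cells, 1230 (18.5%) exceeded the vehicle median of mt- UMIs, and 1425 of 5282 vehicle cells (27.0%) lay below the retinoic acid median, so the libraries overlapped. Within cells the 2 sums were weakly and negatively correlated (Pearson -0.21 in 5282 vehicle and -0.11 in 6659 retinoic acid cells, which share 1 depth). In cells with over 5 mt- UMIs the values were -0.18 (5132 cells) and -0.07 (6225 cells).

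**Figure D4:**
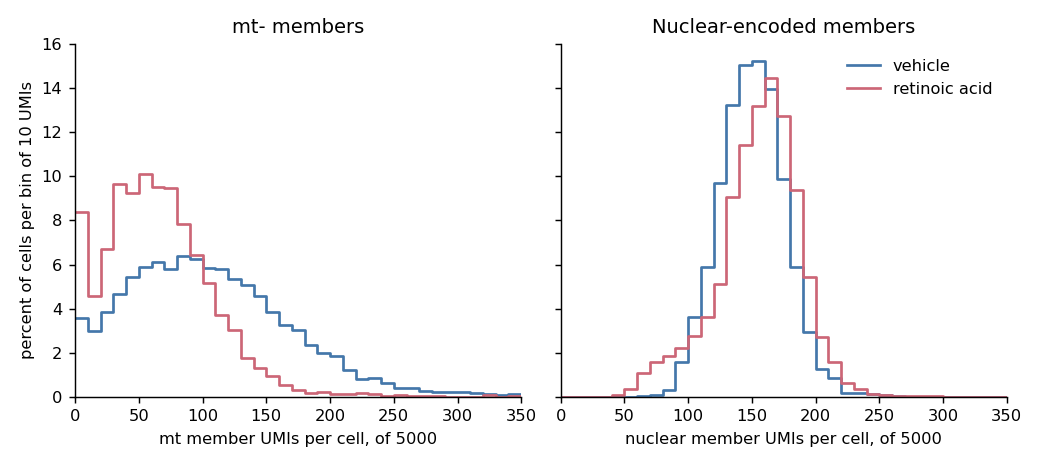
Percent of cells by UMIs of mt- members (left) and of nuclear members (right) per 5000 UMIs, in bins of 10 UMIs, for 5282 vehicle and 6659 retinoic acid cells. The mt- curve of retinoic acid lies at lower counts (median 61 against 98), while the nuclear curves largely coincide (158 against 150).

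Cells with at most 0.1% mitochondrial UMIs were 144 (2.63%) in vehicle and 490 (6.86%) in retinoic acid. Their nuclear member sums were 35257 and 34923 CPM, and Malat1 and Neat1, which stay in the nucleus, summed to 163 and 630 CPM in them against 2383 and 2461 CPM in other cells. Without these cells the mt- to nuclear log2 difference was -0.67, and mt-Co1 was at -1.01.

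The mt- to nuclear ratio was lower in retinoic acid in each cell state examined. Phases were called per cell from S and G2/M gene lists. In vehicle the ratio was 0.795 (0.792 to 0.797) in G1 cells, 0.636 in S and 0.637 in G2/M, and in retinoic acid 0.449 (0.447 to 0.452), 0.405 and 0.414. Compared within a phase, the log2 difference between libraries was -0.82 in G1, -0.65 in S and -0.62 in G2/M. The vehicle library had 48.6% of cells in G1 and the retinoic acid library 19.6%, and weighting both libraries by the phase shares of the vehicle gave a difference of -0.72. Over all cells of a library G1 had the highest mt- to nuclear ratio, and G2/M lay below it by -0.32 (log2) in vehicle and -0.12 in retinoic acid. In the retinoic acid cells with the lowest share of maturation genes the order differed, with 0.445 in G2/M, 0.439 in G1 and 0.419 in S.

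Most nuclear members, like most of all genes, were higher in G2/M than in G1 in vehicle. In retinoic acid the tally of members depended on the maturation genes in the total. In vehicle 64 were higher and 14 lower (median 0.25), while all genes had a median of 0.20 with 67.6% higher. There, 1 nuclear member was at least 1.5-fold higher, where 18.8% of all genes were. That member was Ndufa5, at 0.78. In retinoic acid 67 were higher and 11 lower (median 0.17), while all genes had a median of 0.25 with 73.6% higher. There, 0 nuclear members were at least 1.5-fold higher, where 20.6% of all genes were. The maturation list made up 13.1% of UMIs in retinoic acid G1 cells and 4.80% in G2/M cells. When totals were taken without that list, 44 were higher and 34 lower in retinoic acid (median 0.03). All genes then had a median of 0.11 with 61.1% higher, while vehicle kept member counts of 64 and 14 (median 0.25). Cox7a2l ran the other way, at -0.47 in vehicle and -0.22 in retinoic acid. Among mt- members of vehicle, mt-Co1 was lower in G2/M (-0.48) and mt-Nd1 higher (0.21).

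Cells of each library were also split into 4 groups of near-equal number by the percent of their UMIs in the maturation list. Across them, the vehicle ratio was 0.758, 0.702, 0.649 and 0.643 from the lowest to the highest share, and the retinoic acid ratio 0.434, 0.395, 0.393 and 0.450. The summed shares of the list ran from 0.0852% to 0.809% in vehicle and from 0.935% to 21.6% in retinoic acid. By summed share, only the vehicle's highest group and the retinoic acid library's lowest group are near each other. Their median cells were further apart, at 0.4% in that vehicle group and 0.94% in that retinoic acid group, so the groups are not matched. Those groups had ratios of 0.643 and 0.434. The highest group held more G1 cells than the lowest in both libraries (60.8% against 41.3% in vehicle, 36.3% against 14.3% in retinoic acid).

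**Figure D5:**
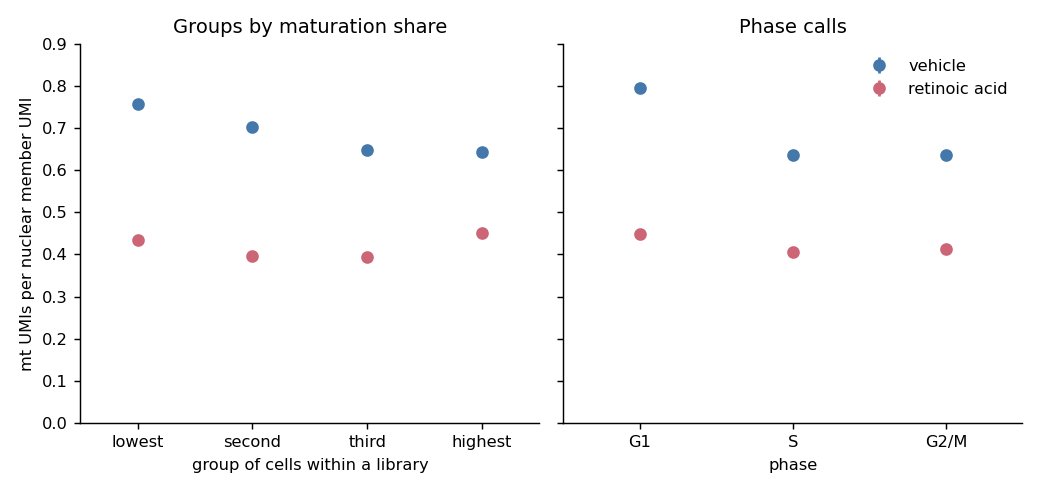
mt- UMIs per nuclear member UMI by maturation group (left, lowest to highest share of maturation genes within a library) and by phase (right), 1 library a group, with bars for 95% counting intervals, mostly hidden by the points. All vehicle points (0.636 to 0.795) lie above all retinoic acid points (0.393 to 0.450).

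In retinoic acid, 77 of 78 nuclear members were lower in the highest maturation group than in the lowest (median -0.52), beside a median of -0.38 for all genes. Of them, 31 were at least 1.5-fold lower, where 32.3% of all genes were. The list itself makes up much of the total in that group: with the list left out, the median was -0.18 with 61 lower and 17 higher, 2 were at least 1.5-fold lower where 11% of all genes were, and all genes had a median of -0.02. Atp5g1, a c-ring gene, had the lowest value (-1.15, and -0.81 without the list), followed by Atp5a1 (-0.98). Ndufv3 had the highest (0.11). The mt- members had a median of -0.53 and 11 of 11 were lower, and -0.19 with 9 lower without the list.

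In vehicle the same contrast gave 49 nuclear members lower and 29 higher (median -0.04; all genes -0.08), with 0 at least 1.5-fold lower where 1.86% of all genes were. All 11 mt- members were lower (median -0.32), from -0.10 for mt-Co1 to -0.63 for mt-Nd3, the only one at least 1.5-fold lower.

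Cells low in maturation genes were compared alone. In 511 retinoic acid and 5020 vehicle cells at or below the vehicle's 95th percentile (0.66% of UMIs), the mt- to nuclear log2 difference was -0.67. These sets were not matched either. Their median maturation shares were 0.42% in retinoic acid and 0.16% in vehicle, and their G1 shares were 14.1% and 47.6%. Nuclear members had a median of 0.20, beside 0.10 for all genes, of which 62.0% were higher. The mt- members had a median of -0.28, with 3 higher and 8 lower. Separately, all 5282 vehicle cells with at least 5000 UMIs, not only those low in maturation genes, were split by 2 lineage genes. Cells with Cpa3 but no Mpo UMI had a ratio of 0.731 (2573 cells), those with Mpo but no Cpa3 UMI 0.630 (623 cells), those with both 0.706 (518 cells) and those with neither 0.654 (1568 cells). All of these exceeded the 0.419 of the retinoic acid library, and the G1 share was 63.2% in the first and 23.4% in the second.

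Marker lists of other cell types were low for erythroid cells (23.3 CPM in vehicle and 24.3 CPM in retinoic acid, Car1 at 0 in both) and for B cells (13.9 and 48.8 CPM, Pax5 at 0 in both). Ighm, the only B cell gene that reached 20 CPM, was at 4.98 CPM in vehicle and 42.6 CPM in retinoic acid (3.09). The T and NK list summed to 1285 and 575 CPM with Cd3e, Cd4 and Cd8a at 0 in both, and Nkg7, at 1283 and 575 CPM, was its only gene that reached 20 CPM. The mast and basophil list was at 806 and 68.1 CPM (Fcer1a, Mcpt4 and Tpsb2 at 0 in both), eosinophil markers were at 115 and 30.5 CPM, megakaryocyte markers at 29.6 and 1.36 CPM, and monocyte and macrophage markers at 203 and 297 CPM. Of that last list, the 2 genes that reached 20 CPM lay on opposite sides, Vcam1 at 129 and 292 CPM and Adgre1 at 73.7 and 5.15 CPM. The part of these cells in the mt- difference was not tested beyond the split by Cpa3 and Mpo.

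Genes that build or regulate the chain showed no single direction, and small medians below changed sign with scaling (complex I assembly -0.02, and 0.06 under TMM). Among 9 assembly factors of complex I, 4 were higher and 5 lower (median -0.02), and among 5 of complexes II and III, 3 were higher and 2 lower (0.18). For complex IV, 7 were higher and 8 lower (-0.12), with Pet100 at 34.8 CPM in vehicle and 59.6 CPM in retinoic acid (0.78). For complex V, 1 was higher and 2 lower (-0.01). Electron carriers and unmatched subunits had 5 higher and 5 lower (-0.01), among them Cycs, cytochrome c, at 85.6 and 69.6 CPM (-0.30).

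Of 16 genes that copy and transcribe mitochondrial DNA, only 5 reached 20 CPM in either library. Of these 5, 1 was higher and 4 lower (median -0.18), and the genes under 20 CPM are not summarised here. The packaging factor Tfam was at 32.8 CPM in vehicle and 40.0 CPM in retinoic acid (0.28) and the RNA polymerase Polrmt, below 20 CPM, at 9.80 and 7.36 CPM (-0.41). Mitochondrial RNA processing and stability genes had 3 higher and 9 lower (-0.15). Rexo2, an exonuclease of short RNAs, was at 494 and 239 CPM (-1.05, -1.07 to -1.03). It was the only one of these 12 at least 1.5-fold lower, where 10.1% of all genes were. Nuclear regulators had 6 higher and 2 lower (0.08), with the deacetylase Sirt3 at 84.6 and 46.2 CPM (-0.87).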

How the data were processed

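Single-cell 3′ RNA libraries of 1 vehicle and 1 retinoic acid group were analysed. The authors deposited whole-number UMI counts for each gene in each cell, without normalisation. The submitters' processing notes name Cell Ranger 4.0.0 and the builds mm10 and GRCm38.p4. The annotation, strand setting and rule for calling cells are not given in the sources used here. Positions are GRCm38 from GENCODE M21, matched by identifier.

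Barcodes under 1000 UMIs or 500 genes, or above 10% mitochondrial UMIs, were dropped, in all 310 of 5786 vehicle and 276 of 7416 retinoic acid barcodes, of which 146 and 122 failed the mitochondrial limit alone. Scrublet called 2 and 5 cells, too few to be taken as having worked, so no doublets were removed, and an alternative removed the 5% highest scores.

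Counts were summed per library (CPM; log2 ratios with 0.5 counts added; exact binomial intervals conditional on both sums). Bounds of a median are those of its middle members. A count of 0 allows up to 3 counts, 0.0303 CPM in vehicle and 0.0273 CPM in retinoic acid. Intervals and limits cover counting error only. Per-cell values and states used cells thinned to 5000 UMIs, and phases were called in scanpy 1.11.5 on genes in at least 3 cells. Ratios were computed with Python 3.11.15, numpy 2.4.6, scipy 1.17.1 and pandas 2.3.3, TMM factors with edgeR 4.0.16, and the ratio calculation was tested on simulated counts.

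Comparisons used genes that reached 20 CPM in 1 library or both. Named genes were all mt- members, the 2 nuclear members with most CPM in each complex, the 10 largest rises and falls, members at least 1.5-fold changed, and subunits with tissue-specific partners. Of the list genes at least 1.5-fold changed, only some were named, and most of the maturation, cycling and lineage genes among them were not. Other genes named (among them Cd34, Cpa3, Mpo, Elane, Tfam, Polrmt, Cycs, Ndufs8 and Sdha) were chosen with their values in view. The NRF1 letters searched in promoters were shortened after a longer palindromic form had been run and its matches seen. The longer form matched fewer members and fewer of all promoters. The sign of the median log2 ratio of members with a match differed between the forms, so no weight can be put on that median. Members and lists were chosen with earlier results of these data known. Alternatives changed the cell filter, weights, scaling, floor, fold and state definitions.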

Additional observations from a re-analysis of the deposited data

Results flagged for a closer look

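The mt- to nuclear ratio differed in direction between the libraries across groups split by the share of maturation genes. From the lowest to the highest maturation group it was lower by a log2 value of -0.24 in vehicle (-0.25 to -0.23) and higher by 0.052 in retinoic acid (0.043 to 0.061), and within G1 cells the values were -0.35 and 0.23. The difference between the libraries was not tested, and the groups covered different shares of maturation genes in each. The genes behind the share also differed. Anxa1, on the maturation list, was at 441 CPM in vehicle and 55.3 CPM in retinoic acid, opposite to most of the list.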

How the results depend on the processing

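No paired analysis was possible because there was 1 library per group. Of the recomputed values of the medians, ratios and counts below, 51 moved beyond their counting interval or 1.5 times their count, 24 did not, and none of these changed sign, although the medians of the F1 and c-ring groups did under TMM. The cause was not tested.

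The mt- median was -0.59 over all deposited barcodes, -0.52 with a 5% mitochondrial limit, -0.50 without cells at or under 0.1%, -0.52 with equal weight per cell, -0.60 with vehicle phase weights, -0.47 with TMM, -0.46 without the maturation list in the total, -0.43 over all members with at least 10 UMIs and -0.28 in cells at or under the vehicle's 95th percentile of maturation share. The nuclear median was 0.14 with TMM, 0.15 without that list and 0.20 in those cells, beside medians of 0.09, 0.10 and 0.10 for all genes.

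The mt- to nuclear log2 difference was -0.77 over all barcodes, -0.69 with the 5% limit, -0.74 with no limit, -0.67 without the low cells, -0.74 without the 5% highest doublet scores, -0.69 with equal weights, -0.70 without the mt- and the nuclear member with most UMIs, -0.56 without mt-Co1 and mt-Co3 and -0.67 in cells low in maturation genes. The last 2 settings were added after seeing the data.

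At least 1.5-fold higher nuclear members numbered 5 with TMM, 13 at a looser fold and 0 at 2-fold. Lower mt- members numbered 2 with TMM, 8 at the looser fold and 1 at 2-fold. Lower nuclear members numbered 4 at the looser fold and 2 over all members with at least 10 UMIs. Shares of all genes at these settings are not given here, so the counts were not set against them.

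The maturation difference in vehicle was -0.21 at 3000 UMIs, -0.26 with no mitochondrial limit, -0.21 without low cells, -0.25 without high doublet scores, -0.32 with equal weights, -0.22 with 3 groups and -0.35 in G1 cells. In retinoic acid it was 0.079 at 3000 UMIs, 0.085 without low cells, 0.061 without high doublet scores, 0.061 with equal weights, 0.035 with 3 groups and 0.23 in G1 cells.

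G2/M against G1 gave -0.33 in vehicle and -0.10 in retinoic acid with no mitochondrial limit, -0.34 and -0.13 without low cells, -0.34 and -0.15 without high doublet scores, and -0.31 and -0.16 with equal weights. The nuclear median of G2/M against G1 in retinoic acid was 0.033 when totals were taken without the maturation list, also added after seeing the data.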

Other observations

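Scaled by total counts, most genes of several other mitochondrial groups were lower in retinoic acid. Of all 5548 genes, 2746 were lower and 2802 higher, with 10.1% at least 1.5-fold lower and 8.15% at least 1.5-fold higher. Of 17 citric acid cycle genes, 14 were lower and 3 higher (median log2 ratio -0.21), with Dlst, a subunit of the 2-oxoglutarate dehydrogenase complex, at 70.2 CPM in vehicle and 39.9 CPM in retinoic acid (-0.82). Of 29 import and structure genes, 21 were lower and 8 higher (-0.15). Among them were the chaperonin Hspe1, at 166 and 88.3 CPM (-0.91), and the ADP/ATP carrier Slc25a4, at 237 and 128 CPM (-0.89). Of 6 mitophagy genes, 4 were lower and 2 higher (-0.43). Bnip3, a mitophagy receptor, was at 92.1 and 22.3 CPM (-2.04), Pink1 at 46.1 and 23.1 CPM and Sqstm1 at 83.1 and 48.0 CPM (-0.79). Mitochondrial ribosomal proteins had 45 lower and 30 higher of 75 (-0.06), with Mrps35 and Mrps6 at least 1.5-fold lower. Cytosolic ribosomal proteins had 61 lower and 24 higher of 85 (-0.15), with Rplp0 alone at least 1.5-fold lower, and summed to 294398 and 256759 CPM. Under TMM scaling the lower and higher counts were 13 and 4 for the citric acid cycle and 16 and 13 for import and structure. They were 3 and 3 for mitophagy, 37 and 38 for the mitochondrial ribosome (median 0.02) and 57 and 28 for the cytosolic ribosome. Rplp0 no longer met 1.5-fold. Of all genes under TMM, 2278 were lower and 3270 higher (median 0.09).

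Barcodes removed by the 10% mitochondrial limit held 9.07 mt- UMIs per nuclear member UMI in vehicle (146 barcodes) and 11.0 in retinoic acid (122 barcodes). By depth, the ratio in 4 groups of kept cells from shallowest to deepest was 0.733, 0.755, 0.694 and 0.655 in vehicle, and 0.524, 0.406, 0.406 and 0.413 in retinoic acid.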
